A study of Mus musculus with 24 samples.

Results

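The sites described here are the best supported single-base positions of N6-methyladenosine (m6A) in 2 deposited miCLIP site lists of mouse dorsal root ganglion. Each list gives, for every site, k, the number of reads over the base, and m, the number of those reads that carried a mutation. A site was chosen when at least 3 mutated reads were recorded in either list, so m chose the members and is given as a description, without a test. The choice left 591 of 29291 sites (2.02%, exact 95% binomial interval 1.86% to 2.19%), of which 297 were chosen among the 14446 sites of the naive list and 364 among the 18677 sites of the SNL list.

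Dorsal root ganglia hold the cell bodies of sensory neurons together with satellite glia and Schwann cells. All samples were L4/5 ganglia (lumbar ganglia whose axons run in the sciatic nerve) of C57BL/6 mice, with a treatment label that names a sham operation or a crush of the sciatic nerve for every sample, so whether naive animals were sham-operated is not given. miCLIP was run on wild-type ganglia only, with 1 library titled naive and 1 titled SNL without a day, and the same m6A antibody (Synaptic Systems) as MeRIP-seq. RNA-seq covered 3 libraries each of wild type naive, wild type SNLD1, Mettl14cKO naive and Mettl14cKO SNLD1, where Mettl14cKO is labelled Mettl14-/- and the driver of the knockout is not given in the labels. SNLD1 is read here as 1 day after the lesion, and the sample titles do not spell out SNL. MeRIP-seq, which counts RNA pulled down by the antibody (IP) beside input RNA, covered 3 IP and 2 input libraries of wild-type ganglia for each condition, naive and SNLD1. Nothing in the labels ties replicates to separate animals. The p-values therefore cover the spread among these libraries, which may be technical. No label gives the age or sex of the animals.

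m6A is the most common internal modification of messenger RNA. It is placed by a complex whose core is the enzyme METTL3 and its partner METTL14, at adenosines in the DRACH context, in which the methylated A follows a purine and precedes a C. In miCLIP an antibody is crosslinked to the modified RNA, and the remnant of the crosslink leaves mutations or truncations in the sequenced fragment beside the modified base. Reader proteins of m6A affect splicing, export, translation and decay of the RNA, and in sensory neurons m6A is studied for its part in axon regeneration.

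The sequence around a site could be read where the site lay in a promoter window of the RefSeq table (GRCm38.p6, from 250 bases before to 50 after a gene's start). In all, 716 sites of the 2 lists lay in such a window and 716 of these carried there the same 5 bases as in the list. Of the members, 14 lay in such a window, and 8 of them are shown to give the bases around members in the contexts AGACC and GGACC and in 2 contexts that end in T. The 5-base context is in capitals, with the methylated A in its middle, and each sequence is written 5′ to 3′ on the strand of the site.
Tubb2b, chr13:34130264, minus strand: ccactgacacAGACCcaagacagca
Tubb2b, chr13:34130278, minus strand: gaggatcatcAGACCcactgacaca
Ttl, chr2:129066049, plus strand: ccctggaattAGACCgacagcgggg
Rab6a, chr7:100607845, plus strand: gcgcgtgccgAGACCcagacgcgtc
Kcns1, chr2:164168398, minus strand: cgagcagcgtGGACCcgtgtcccga
Hspa12a, chr19:58860953, minus strand: ccagaggctcAGACCtagctcggga
Ncdn, chr4:126753350, minus strand: gcccggagaaAGACTtcgccgctcg
Rtn4rl2, chr2:84886807, minus strand: acgtagcccgGGACTccccgggtcc

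The Tubb2b pair (a beta-tubulin) lay 14 bases apart, so the 2 windows overlap. The first had 4 of 15 reads mutated in naive and 2 of 20 in SNL, while its neighbour was listed in SNL only, with 3 of 20. In Ttl, which encodes tubulin tyrosine ligase, 5 of 29 reads were mutated in naive and 3 of 23 in SNL. Rab6a, a small GTPase of the Golgi, had 3 of 12 and 3 of 14. These windows represent members near an annotated gene start only, since no sequence was read for the other members beyond the 5 bases the lists give. For the Tubb2b, Ttl, Rab6a, Kcns1 and Ncdn sites that start was of another gene on the opposite strand. Only the Hspa12a and Rtn4rl2 sites shown lay in the window of the host itself.

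Most members sat at the threshold. Of the naive members 221 (74.4%) had m of 3, 54 had 4, 12 had 5, 6 had 6, 3 had 7 and 1 had 8. Of the SNL members 271 (74.5%) had m of 3, 67 had 4, 20 had 5, 3 had 6, 2 had 9 and 1 had 10. Just inside the threshold, sites with m of 3 had a median of 13 reads over the base and a median mutated share (m divided by k) of 23.1% in either list. Just outside it, sites with m of 2 had a median of 8 reads and a share of 25% in either list, and the 13024 naive and 16760 SNL sites with m of 1 had a median of 4 reads and a share of 25%. Since no share is above 50%, a site with m of 3 needs at least 6 reads, so the rule itself ties members to more reads and these medians are a description. Members had a median of 14 reads in either list, with a range of 6 to 47 in naive and 6 to 48 in SNL. Their mutated share had a median of 25% in naive (7.32% to 50%) and 23.3% in SNL (7.5% to 50%). Exactly 50% was the share of 20 naive and 23 SNL members. Members made up 6.17% of the mutated reads of the naive list (1004 of 16278) and 5.82% of those of the SNL list (1227 of 21093). Reads are not independent molecules, so all intervals on shares cover counting error only.

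**Figure D1:**
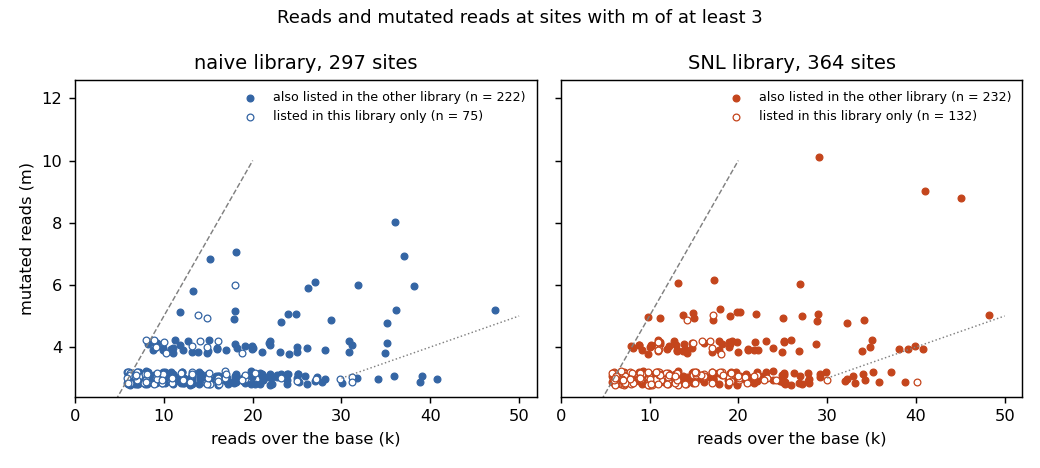
Mutated reads (m, vertical axis) against reads over the base (k, horizontal axis) for the 297 naive members and the 364 SNL members, moved by a small random amount so that points do not hide each other. Filled points were listed in both libraries and open points in 1. The dashed line marks a mutated share of 50% and the dotted line 10%. Open points crowd at low k, and the 3 SNL sites with m of 9 or 10 have at least 29 reads.

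Among the naive members, the site with the most mutated reads was in Sncg, the gene of gamma-synuclein, an axonal protein abundant in sensory neurons. This site (chr14:34370512, minus strand, GGACA) had 8 of 36 reads mutated in naive (22.2%, 10.1% to 39.2%) and 2 of 39 in SNL (5.13%, 0.627% to 17.3%). A GAACC site in the same gene had 6 of 32 in naive and 2 of 32 in SNL, whereas a GGACC site of Sncg 17 bases from the first had 1 of 29 in naive and 5 of 32 in SNL. So neighbouring sites of 1 transcript took their larger count from different libraries. Pcsk1n (chrX:7922292, plus strand, GGACC), the precursor of a proprotein convertase inhibitor, had 7 of 15 reads mutated in naive (46.7%, 21.3% to 73.4%) and 4 of 10 in SNL (40%, 12.2% to 73.8%). Cabp1 (chr5:115168803, minus strand, AGACC), which encodes a neuronal calcium-binding protein, had 7 of 18 and 4 of 16. Nfe2l1 (chr11:96818976, minus strand, AGACT), a transcription factor of proteasome genes, had 7 of 37 and 3 of 34. Flot2, a membrane scaffold protein, had 6 of 13 and 5 of 15. Of the 22 naive sites with m of at least 5, 19 were also listed in SNL, and the others were in Stmn3, Eef1a2 and Slc17a7, the latter pair named after their values were seen. Among the 10 with m of at least 6 the exception was a TGACC site in Stmn3, a microtubule-destabilising stathmin, with 6 of 18 reads mutated in naive.

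In the SNL list the largest count was in Retreg1, a receptor for autophagy of the endoplasmic reticulum. Its site (chr15:25843497, plus strand, TGACC) had 10 of 29 reads mutated in SNL (34.5%, 17.9% to 54.3%) and 1 of 15 in naive (6.67%, 0.169% to 31.9%), and the intervals overlap. Ccdc92 (chr5:124835532, minus strand, AGACC) had 9 of 41 in SNL and 6 of 38 in naive, the largest pair of counts among all members. S100b (chr10:76260033, plus strand, TGACC), a glial calcium-binding protein, had 9 of 45 in SNL and 4 of 35 in naive. A GGACC site in Tubb2a had 6 of 13 in SNL and 3 of 10 in naive, and one in Tubb3, the neuronal beta-tubulin (chr8:123421000, plus strand), had 6 of 17 and 4 of 19. Of the 26 SNL sites with m of at least 5, 24 were also listed in naive. The other 2 were in Sox11 (chr12:27342411, minus strand, GGACC), a transcription factor induced by axon injury, with 5 of 14 reads mutated, and in Tsc22d1, with 5 of 17, a site named after its values were seen.

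Members were listed in both libraries far more often than other sites. Of the 591 members 384 were in both lists at the same base and strand (65.0%, 61.0% to 68.8%), 75 in naive only and 132 in SNL only. Among the 28700 other sites 3448 were in both (12%, 11.6% to 12.4%). A site in both lists could be chosen by either m, so the rule itself widens this contrast. The values that follow take 1 list at a time, with sites classed by the m of that list only. Of the naive members 74.7% were in the SNL list, against 50.7% of naive sites with m of 2 and 23.3% with m of 1. Of the SNL members 63.7% were in the naive list, against 39.0% and 17.9%. With m of at least 4 the share was 82.9% from naive and 88.2% from SNL. At the same time, few members met the rule in both libraries: 70 of 591 (11.8%), while 103 members of each list had a single mutated read in the other.

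Because members have more reads, sharing was also read within classes of k, where members differed from sites with m of 1 more than from sites with m of 2. At 6 to 9 reads 56.9% of naive members (44.7% to 68.6%) and 36.4% of naive sites with m of 1 (34.5% to 38.4%) were in the SNL list. At 10 to 19 reads the values were 74.5% (66.6% to 81.4%) and 49.3% (46.4% to 52.2%), and at 20 to 29 reads 93.1% (83.3% to 98.1%) and 59.9% (52.5% to 67.0%). At 30 to 60 reads the 22 members gave 86.4% and the 44 sites with m of 1 gave 77.3%, with overlapping intervals (65.1% to 97.1% and 62.2% to 88.5%). In the SNL list the intervals likewise did not overlap below 30 reads, with 46.8%, 57.6% and 86.8% of members against 25.6%, 41.7% and 64.5% of sites with m of 1. Sites with m of 2 were nearer to the members. In naive they were shared at 47.4% (42.3% to 52.7%), 60.7% (55.4% to 65.8%), 80.3% (69.5% to 88.5%) and 90.9% (58.7% to 99.8%) over the same 4 classes, and only at 10 to 19 reads were the intervals apart from those of members. In SNL they were at 35.8%, 51.2%, 71.3% and 86.1%, with intervals that overlapped those of members in each class. Members not listed in the other library were shallower, with a median of 11 reads in either list, against 15 in naive and 17 in SNL for those that were.

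**Figure D2:**
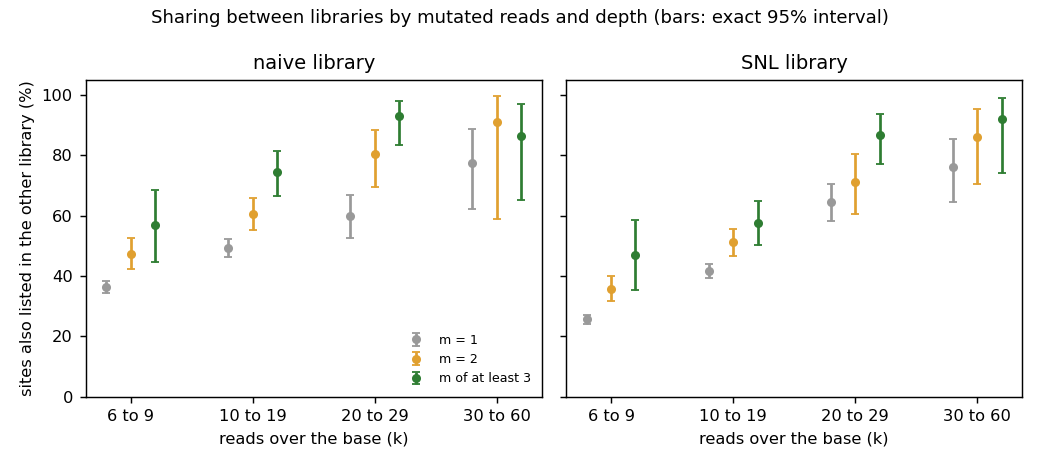
Share of sites also listed in the other library (%, vertical axis) by reads over the base (horizontal axis) for sites with 1, 2 and at least 3 mutated reads, naive list left and SNL list right. Bars are exact 95% binomial intervals. Members lie above sites with m of 1 in each class, with intervals apart below 30 reads (56.9% against 36.4% at 6 to 9 reads in naive), and closer to sites with m of 2 (47.4% there).

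At the 384 members listed in both libraries the exact intervals of the 2 mutated shares overlapped at each site. The shares contain m, which chose the sites, and overlapping intervals do not show that the libraries were alike. Reads over the base had a Pearson correlation of 0.85 between libraries over the 384 sites and mutated shares one of 0.21. Over the 70 sites chosen in both the values were 0.90 and 0.80, which share their minimum m by the rule. These 70 had a median share of 21.2% in naive and 20% in SNL, with 24 higher and 44 lower in SNL. For the 152 shared members chosen by naive alone the medians were 23.1% in naive and 9.09% in SNL, and for the 162 chosen by SNL alone 11.1% in naive and 21.8% in SNL, a direction that the choice of members fixes. Mutated shares had a correlation of 0.63 over the 152 and 0.51 over the 162. The 0.21 over all 384 pools these sets, which were chosen by m in opposite libraries. With 1 library per condition no change with injury can be tested at a site.

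The context of the members differed from that of sites with fewer mutated reads, and the rule did not use it. A cytosine 2 bases after the methylated A, as in GGACC, stood at 195 of 297 naive members (65.7%, 60% to 71.0%), against 56.2% of sites with m of 2 (53.2% to 59.1%) and 41.9% with m of 1 (41.0% to 42.7%). In the SNL list it stood at 230 of 364 members (63.2%, 58% to 68.2%), against 55.2% (52.7% to 57.7%) and 41.5% (40.8% to 42.3%). Over both lists 378 of 591 members had it (64.0%), while 102 had A and 111 had T there. Before the methylated A, a guanine stood at 97.0% of naive and 96.2% of SNL members, against 93.1% and 91.4% of sites with m of 2 and 82.4% and 81.6% with m of 1. The intervals of members and of sites with m of 2 overlapped in naive (94.3% to 98.6% and 91.4% to 94.5%) and were apart in SNL (93.6% to 97.9% and 89.9% to 92.8%).

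Within classes of reads cytosine was also more frequent at members than at sites with m of 1. At 6 to 9 reads it stood at 68.1% of naive members and 40.4% of sites with m of 1, at 10 to 19 reads at 73.8% and 35.0%, and at 20 to 29 reads at 48.3% (35.0% to 61.8%) and 28.3% (22% to 35.4%), where the intervals overlap. In SNL the values were 70.9% and 38.6%, then 67.4% and 38.2%, then 51.3% and 31.8%. Sites with m of 2 lay between, at 59.3% (54.1% to 64.3%), 50.8% and 43.4% (32.1% to 55.3%) in naive and 52.6%, 53.8% and 49.4% in SNL. Their intervals were apart from those of members at 10 to 19 reads in naive and below 20 reads in SNL, and overlapped them in the other classes. Members and sites with m of 1 had less of it at 20 or more reads than at 6 to 9. At 30 to 60 reads 11 of 22 naive and 11 of 25 SNL members had it, too few to tell from sites with m of 1.

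GGACC was the commonest 5-base context, at 96 naive and 107 SNL members (32.3% and 29.4%). Sites with m of 2 had it at 25.2% and 23.7%, with intervals that overlap those of members, and sites with m of 1 at 15.6% and 14.8%. AGACC followed at 51 and 66 and TGACC at 40 and 45. GGACT, a context often given as the typical m6A motif, stood at 28 and 32. GGACC members had a median mutated share of 27.3% in naive and 28.6% in SNL at a median of 12.5 and 12 reads. GGACT members had 14.3% and 17.9% at 21 and 17 reads. Since m is at least 3 for all of them, a lower share goes with more reads by construction.

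**Figure D3:**
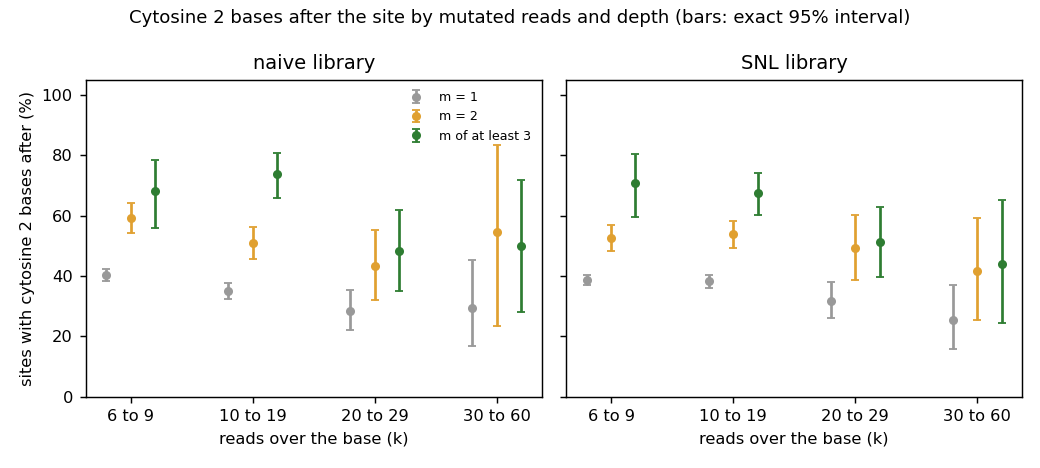
Share of sites with a cytosine 2 bases after the methylated base (%, vertical axis) by reads over the base (horizontal axis) for sites with 1, 2 and at least 3 mutated reads, naive list left and SNL list right. Bars are exact 95% binomial intervals. Members reach 73.8% at 10 to 19 reads in naive, where sites with m of 1 are at 35.0%, and 48.3% at 20 to 29 reads, where such sites are at 28.3%.

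Of the members 589 lay in the span of a gene and 585 in that of a protein-coding gene. For 446 the gene was on the strand of the site, for 143 the strand of the gene was not in the tables used here, and 2 had no host. Positions are given within gene spans, since exons and untranslated regions were not annotated here. The 446 members lay at a median of 71.0% of the span from its 5′ end, against 79.0% for other sites. Beyond 75% of the span lay 46.6% of members (41.9% to 51.4%) and 53.5% of other sites (52.9% to 54.2%). In bases the 2 were close, with a median distance to the 3′ end of 3699.5 for members and 3989 for other sites. The hosts of members had shorter spans, with a median of 21243 bases over members and 27735 over other sites.

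The 589 members with a host fell in 327 host genes, of which 210 held 1 member, 56 held 2, 29 held 3 and 32 held 4 or more. Those 32 genes held 180 members. Members also lay close together, with 84 (14.2%) within 50 bases and 184 (31.1%) within 200 bases of another member, so neighbouring members can share reads and are not independent. Map1a, a microtubule-associated protein of mature neurons, held the most, with 15 members among its 151 listed sites. They spread over 10638 bases of the gene (chr2:121298605-121309243), and 10 were in both lists. Spock2, a secreted proteoglycan, held 11, of which 2 lay near its 5′ end, 22 bases apart, and 8 lay at 86.2% of the span or later. Nfe2l1 held 10, including 2 sites only 5 bases apart (AGACT with 7 of 37 and 3 of 34, GGACC with 5 of 35 and 5 of 34). Plec, a cytoskeletal linker protein, held 9, with 8 in both lists. Tubb3 held 7, between 62.8% and 92.8% of its span, and Ngfr, the neurotrophin receptor also found on Schwann cells, held 7. Map6, a microtubule stabiliser, Phf24, Trarg1 (listed as Tusc5 in the count tables) and Ndrg4 held 6 each, and those of Map6 lay within 809 bases.

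**Figure D4:**
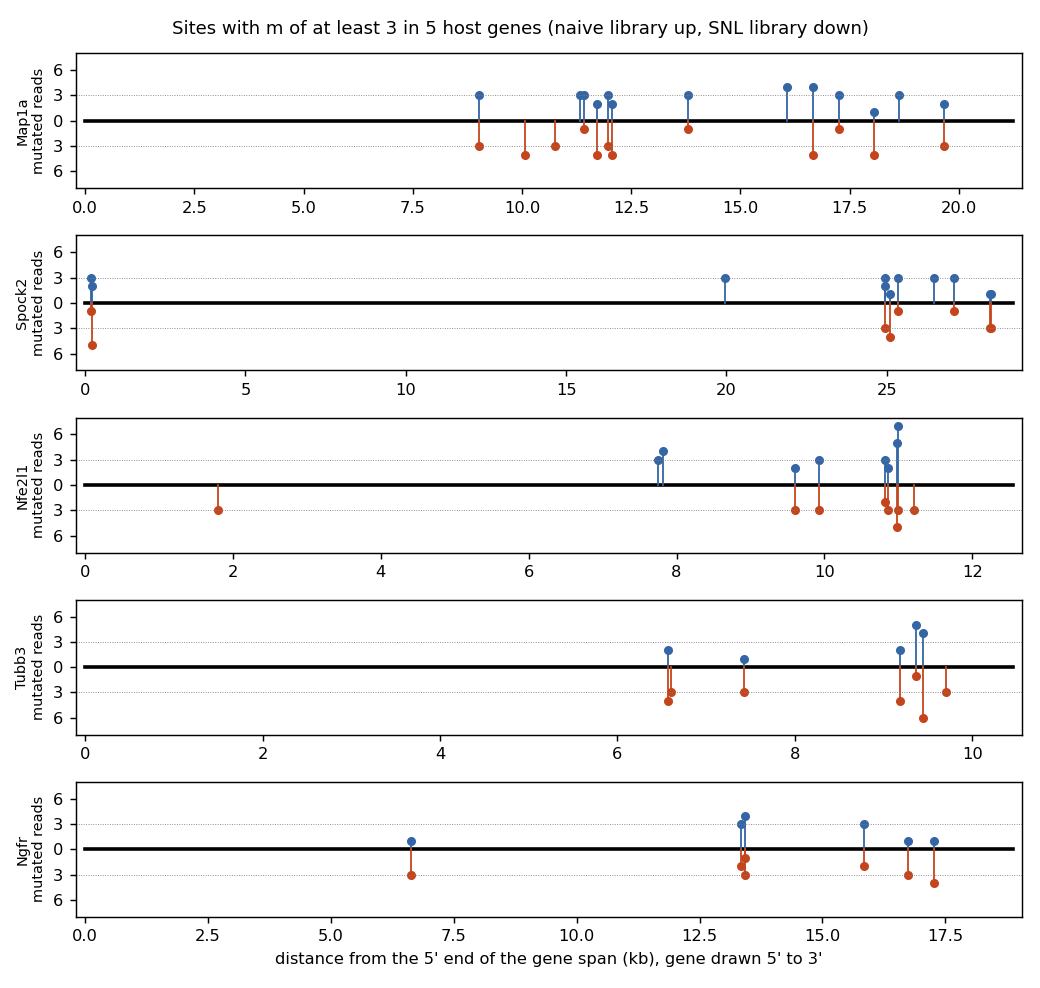
Members in 5 host genes drawn 5′ to 3′ (horizontal axis, distance from the 5′ end of the span in kb), with mutated reads of the naive library upward and of the SNL library downward (vertical axis). Dotted lines mark m of 3, and a one-sided stem is a site listed in 1 library. Map1a members begin at 42.4% of the span, Tubb3 members begin at 62.8% of the span, and Spock2 has 2 members near its 5′ end.

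Over all genes with a listed site, 327 of 6258 held a member. In the list of cytoskeleton and axonal transport genes all 39 had a site and 21 held 66 members, among them Map1a, Tubb3, Tubb2a (5), and Map1b (5). Of 25 pan-neuronal markers 24 had a site and 15 held 52 members, and of 37 sensory neuron markers 31 had a site and 7 held 12, such as Nefh, the heavy neurofilament subunit (5), Scn10a, a sodium channel of nociceptors (2), the potassium channel gene Kcna1 (1) and Pou4f1, a transcription factor of sensory neurons (1). Schwann cell genes were present as well. Of 17 markers 15 had a site and 4 held 13 members, among them Ngfr, the myelin gene Mbp (3), and Prx (1). Of 11 satellite glia markers 10 had a site and only Apoe, a lipid carrier, held members (4), one with 5 of 47 reads mutated in naive. Of 13 macrophage, 10 fibroblast and 10 endothelial markers none held a member, though 3, 5 and 2 of these genes had some listed site. The genes of the m6A machinery held none of the members among 23 listed, and 12 had some site. Of 46 axon guidance genes 26 had a site and 1 held a member (Dpysl2, with 3 of 7 in SNL) and of 52 chromatin and transcription regulators 40 had a site and 2 held a member, among them Chd4 with 3 of 10 in naive and 4 of 11 in SNL. Sites can only be seen on RNA that is present. The 314 hosts tested in RNA-seq had a median of 41.5 CPM (counts scaled to the library's total) in wild type naive, against 23.4 over 5398 hosts of other sites only and 14.6 over all 13291 genes, as read counts that are not corrected for transcript length.

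The RNA-seq libraries held 5707837 to 12639160 counts and the MeRIP-seq libraries 846785 to 19653733. The listed markers of neurons, glia, macrophages and fibroblasts were all among the genes tested in RNA-seq, as were 8 of 10 endothelial ones. The pan-neuronal sum was 21171 to 24245 CPM in wild type naive. Mettl14 itself was at 23.3, 22.9 and 24.1 CPM in wild type naive and 20.1, 20.7 and 19.4 in wild type SNLD1. It was at 14.2, 18.9 and 15 in Mettl14cKO naive and 14.2, 16.9 and 15.6 in Mettl14cKO SNLD1. Each knockout library was below each wild-type library, and the difference did not pass in edgeR's test (log2 −0.55, adjusted p = 0.316 in naive, and −0.36, adjusted p = 0.345 at SNLD1). The part of the gene that was deleted is not given in the labels. In whole ganglia fewer cells of a type and less RNA per cell cannot be told apart.

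MeRIP-seq measures m6A on whole transcripts with another readout. None of the 322 hosts tested was called in IP over input in naive ganglia by edgeR's quasi-likelihood test (0% of all genes called, in either direction), with 28 hosts and 915 of all 14705 genes at an unadjusted p under 0.05. DESeq2 called 1 gene and no host. At SNLD1 edgeR again called 0 (0% of all genes), with 13 hosts and 608 genes at an unadjusted p under 0.05, and DESeq2 called 0. With a replicate block, which no label calls for, edgeR called 7 hosts higher and 14 lower in either condition. It then called 1078 of all genes in naive (48 higher and 1030 lower) and 936 at SNLD1 (44 higher and 892 lower). The median log2 difference of IP over input in naive was 0.75 over the hosts of members, 0.30 over hosts of other sites only, −0.14 over genes with no site and 0.07 over all genes tested. At SNLD1 the medians were 0.56, 0.31, −0.07 and 0.10. In naive 225 hosts of 322 (69.9%) were above 0, against 51.8% of all genes. At SNLD1 211 hosts (65.5%) were above 0, against 52.7% of all genes. Single libraries moved both medians. The naive median was 0.41 without IP library 1, 0.47 without input library 1 and 1.22 without input library 2. The SNLD1 median was −0.01 without input library 1 (927807 counts), 1.76 without input library 2 and 0.19 without IP library 1. In Ngfr the naive inputs were at 9.4 and 31.1 CPM and the naive IP libraries at 215, 37.7 and 93.6. Here the groups did not overlap, but the IP libraries differed several-fold among themselves (log2 2.52 ± 1.13 SE, adjusted p = 0.71). Map1a had 68.6 and 164 CPM in the naive inputs and 456, 251 and 209.5 in the IP libraries (log2 1.39 ± 0.94 SE, adjusted p = 0.72). The SNLD1 inputs of Map1a, at 36.9 and 285 CPM, enclosed 2 of its 3 IP libraries (499, 246 and 223). Ngfr and Map1a were chosen after their values were seen, and hosts of some gene lists differed from them. The naive median was −0.23 over pan-neuronal hosts and −0.07 over cytoskeleton hosts, and Dpysl2 was at −3.31. It was above 0 over hosts of the regeneration-associated, sensory neuron, satellite glia, Schwann cell and chromatin lists. Of the 31 hosts with 4 or more members 24 were above 0 in naive (median 0.74).

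With injury, a small group of hosts rose, with the largest rises in Atf3, Gadd45a and Sox11. In wild type SNLD1 over naive, 9 of 314 hosts were called higher by edgeR (0.948% of all genes called higher) and 0 lower (0.0752% of all genes called lower). DESeq2 also called 9 hosts higher and 0 lower (184 and 18 of all genes). At an unadjusted p under 0.05 in edgeR 20 hosts were higher and 11 lower, beside 643 and 333 of all 13291 genes. As a share, 2.87% of hosts and 1.02% of all genes were called in either direction. Of the hosts, 128 were chosen by the SNL list only, where RNA that rises with injury can give more reads. Of the 13 members of the called hosts 12 were chosen by SNL and 3 by naive. The rule itself can thus favour rising hosts, and these shares are a description. The median host stood at −0.06 on the log2 scale and the median gene at −0.01. With each library left out in turn the host median ran from −0.21 (without naive library 2) to 0.04 (without SNLD1 library 2), and it was also above 0 without naive library 3 (0.02). Atf3, a transcription factor induced by axon injury, was at 8.51, 9.41 and 11.1 CPM in naive and 379.6, 243 and 505 in SNLD1. All SNLD1 libraries were far above all naive ones, a 38.6-fold rise (log2 5.27 ± 0.27 SE, edgeR adjusted p = 2.49e-09). Gadd45a, a stress response gene, was at 7.16, 4.23 and 8.44 CPM in naive and 65.3, 37.3 and 73.9 in SNLD1, without overlap (log2 3.12 ± 0.31 SE, edgeR adjusted p = 9.71e-06). Sox11 was at 37.9, 24 and 20 CPM in naive and 166, 149.9 and 239 in SNLD1, also without overlap (log2 2.76 ± 0.26 SE, edgeR adjusted p = 4.68e-06).

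Jun, an AP-1 transcription factor, rose from 7.54, 3.95 and 8.36 CPM to 20.7, 12.4 and 17.1 (log2 1.30 ± 0.28 SE, edgeR adjusted p = 0.0298). Itga7, a laminin receptor subunit, rose from 11, 6.41 and 13.4 CPM to 30.2, 14.4 and 30.5 (log2 1.26 ± 0.28 SE, edgeR adjusted p = 0.036). Both calls were lost without any 1 of wild type naive libraries 1, 2 and 3 and SNLD1 libraries 1 and 3, at log2 1.06 to 1.5 for Jun (edgeR adjusted p up to 0.149) and 1.03 to 1.49 for Itga7 (up to 0.235). The other 4 called hosts are named after their values were seen: Klf6, a zinc-finger transcription factor (log2 1.17), Eif3b, a translation initiation factor (0.83), Srxn1, an antioxidant enzyme (0.74), and Fam53c (0.72). Without any 1 of the same 5 libraries 4 or 5 hosts were called higher, beside 60 to 123 of all genes (126 with all libraries). The summed macrophage markers were 79.6 to 105.1 CPM in naive and 104.3 to 139 in SNLD1, and their part in these values was not tested.

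Sites on these 9 hosts were mostly seen in the SNL library. Of their 13 members 8 were listed in SNL only, 4 in both and 1 in naive only, where SNL-only members are 22.3% of all. Atf3 had no listed site of any m in naive and 15 in SNL, 2 of them members (GGACC at chr1:191171133 with 3 of 22 reads mutated and GGACC at chr1:191183121 with 3 of 6, both on the minus strand). Sox11 had 0 listed sites in naive and 6 in SNL. Gadd45a had 2 and 4, and its member had 1 of 2 reads mutated in naive and 3 of 14 in SNL. Klf6 had 2 and 5, and its member 1 of 2 and 3 of 7. Jun, by contrast, had 19 listed sites in naive and 25 in SNL. One of its members was met in both (AGACT, 3 of 13 and 3 of 25) and the other in SNL only (GGACC, 3 of 11). The deposited lists give no reads at bases without a mutated read, so a site that was unmodified in naive and an RNA that was scarce there cannot be told apart. Hosts with a member in SNL only had a median injury difference of −0.01 on the log2 scale over 112 genes, and hosts with one in naive only −0.13 over 63 genes.

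The regeneration-associated list, which was drawn up with results of these data known, shows both kinds of host. Of its 43 genes 33 had some site and 9 held 24 members. Of the 9, 5 rose with injury (Atf3, Sox11, Gadd45a, Jun and Klf6), as did 17 of the 39 list genes tested. The others did not pass: Tubb3 (7 members) was at 1498, 1409 and 2277 CPM in naive and 2079, 1306 and 2101 in SNLD1, with overlapping groups (log2 0.08 ± 0.21 SE, edgeR adjusted p above 0.99). Tubb2a (5) had a log2 difference of 0.12 and Basp1 (3), a growth cone protein, of −0.03.

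**Figure D5:**
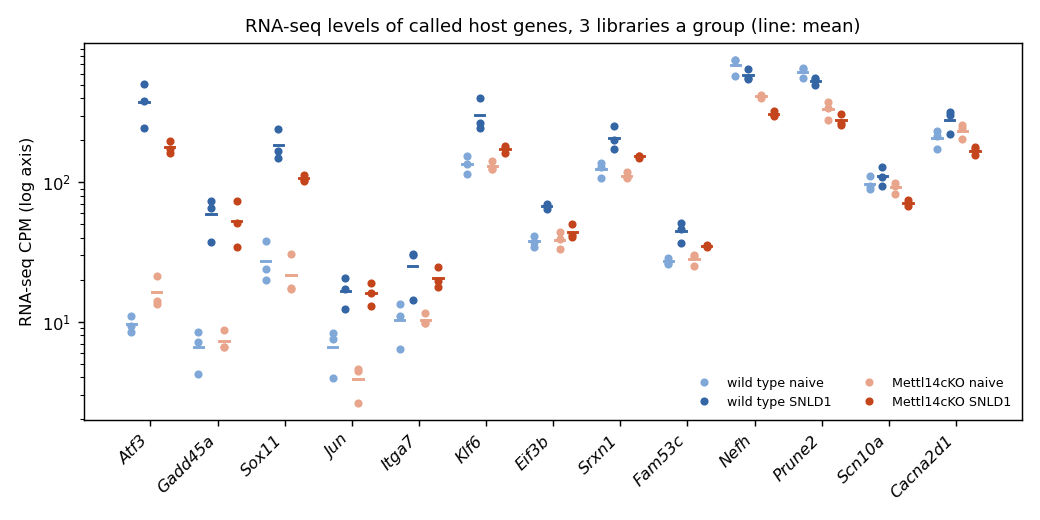
RNA-seq level (CPM, log axis) of 13 host genes of members in each library, with 3 libraries a group and a line at the mean. Atf3, Gadd45a and Sox11 are higher in all SNLD1 than in all naive libraries of either genotype, and Nefh and Prune2 are lower in all Mettl14cKO than in all wild-type libraries of the same condition.

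In Mettl14cKO over wild type, the hosts that passed were lower. In naive ganglia 0 of 314 hosts were called higher (0.173% of all genes called higher) and 2 lower (0.113% of all genes called lower). DESeq2 called 0 hosts higher and 4 lower (42 and 31 of all genes). At an unadjusted p under 0.05 in edgeR 8 hosts were higher and 17 lower, beside 575 and 435 of all 13291 genes. In either direction 0.637% of hosts and 0.286% of all genes were called. The median host was at −0.10 on the log2 scale and the median gene at 0.00. Above 0 were 92 of 314 hosts (29.3%), against 50.6% of all genes. Left out in turn, single libraries moved the host median between −0.24 (without wild type naive library 2) and −0.0048 (without wild type naive library 3). Of the 30 tested hosts with 4 or more members 2 were above 0 (median −0.18). Nefh was at 753, 579.7 and 746 CPM in wild type naive and 417, 402 and 419 in Mettl14cKO naive, without overlap (log2 −0.75 ± 0.14 SE, edgeR adjusted p = 0.0305). Prune2, which held 2 members 159 bases apart, was at 644, 554 and 654 CPM in wild type naive and 278, 343 and 377 in Mettl14cKO naive (log2 −0.89 ± 0.15 SE, edgeR adjusted p = 0.011). The Prune2 call was lost without wild type naive library 1 or 3 or Mettl14cKO naive library 2, and the Nefh call without any 1 of these or of Mettl14cKO naive libraries 1 and 3, with log2 values of −0.997 to −0.78 and −0.86 to −0.69 over all libraries left out in turn.

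At SNLD1 0 hosts were called higher (0.948% of all genes called higher) and 6 lower (0.512% of all genes called lower). In either direction 1.91% of hosts and 1.46% of all genes were called. DESeq2 called 1 host higher and 12 lower (220 and 179 of all genes). At an unadjusted p under 0.05 in edgeR 8 hosts were higher and 27 lower, beside 992 and 918 of all 13291 genes. The median host was at −0.07, and 128 of 314 (40.8%) were above 0, against 50.5% of all genes. Of the 30 with 4 or more members 11 were above 0. Over single libraries left out the median ran from −0.16 (without wild type SNLD1 library 2) to −0.0072 (without wild type SNLD1 library 1). Nefh was at 562, 553 and 643 CPM in wild type SNLD1 and 326, 305 and 299.9 in Mettl14cKO SNLD1 (log2 −0.92 ± 0.14 SE, edgeR adjusted p = 0.0036). Prune2 was at 499, 546 and 559 CPM and at 266, 259 and 306 (log2 −0.95 ± 0.15 SE, edgeR adjusted p = 0.00388). For both genes the groups did not overlap, and the call held without each library in turn.

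Atf3 was at 173, 197 and 163 CPM in Mettl14cKO SNLD1, below the wild-type SNLD1 libraries given above (log2 −1.08 ± 0.22 SE, edgeR adjusted p = 0.0202). This comparison shares the wild type SNLD1 libraries with the injury comparison. Klf6 (log2 −0.80), Scn10a (−0.64) and Cacna2d1, an auxiliary calcium channel subunit (−0.73), were also lower. Scn10a was at 129.5, 94.5 and 109 CPM in wild type and 68.0, 74.4 and 70.6 in Mettl14cKO, without overlap (edgeR adjusted p = 0.0479). Without wild type SNLD1 library 1 or 3 or Mettl14cKO SNLD1 library 1 the Atf3 call was lost (log2 −1.32 to −0.81 over all left out in turn). The Klf6 call was lost without any 1 of these or of Mettl14cKO SNLD1 libraries 2 and 3 (−0.93 to −0.54). The Scn10a call was lost without any 1 of the same libraries as the Klf6 call. For Cacna2d1 the call was lost without wild type SNLD1 library 2 or 3 or Mettl14cKO SNLD1 library 1 or 2 (−0.87 to −0.63). Over all hosts, 2 or 3 were called lower without wild type SNLD1 library 1 or 3 or Mettl14cKO SNLD1 library 1 or 2. Of all genes 9 to 23 were then called lower, against 68 with all libraries.

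Some marker sums differed with genotype and others overlapped. The pan-neuronal sum was 18103 to 20968 CPM in Mettl14cKO naive, below all wild type naive libraries. At SNLD1 it was 17675 to 20104 in Mettl14cKO and 19964 to 24348 in wild type. The fibroblast sum at SNLD1 was 2747 to 4449 in Mettl14cKO and 1822 to 2351 in wild type, the endothelial sum 92.0 to 105.6 and 53.0 to 67.8, and the satellite glia sum 2567 to 2696 and 3041 to 4361. The sensory neuron sum, whose list holds Nefh and Scn10a, overlapped in naive (8719 to 11406 in Mettl14cKO and 10840.1 to 11519 in wild type) and at SNLD1 (9158 to 12595 and 11760.1 to 12670). Schwann cell sums (6182 to 6475 and 4797 to 8338 at SNLD1) and macrophage sums overlapped as well. The part of these cells in the lower values of the hosts was not tested. Of the 13 members in the 6 lower hosts 9 were listed in both libraries and 4 in SNL only. The knockout has no miCLIP library here, so the sites themselves were compared in wild type only.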

How the data were processed

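The authors' deposited miCLIP lists give, per site of mm10, reads, mutated reads and 5 bases in its name and a value of unit other in the score column, which equals mutated reads divided by reads. Site caller and filters: not given in the sources used here. For RNA-seq and for MeRIP-seq the authors deposited raw counts per gene symbol. Per the submitters' processing notes, mm10, STAR, Trimmomatic and DESeq2 were used, with neither version nor role stated.

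Sites with at least 3 mutated reads in either list were taken. Lists were joined at the same base and strand, and sites were assigned to GRCm38.p6 gene spans on their own strand where the strand was known. Shares carry exact (Clopper-Pearson) 95% intervals. Counts were fitted in R 4.3.3 with edgeR 4.0.16 (filterByExpr, TMM, glmQLFit, glmQLFTest) to all 12 RNA-seq libraries and, separately, all 10 MeRIP-seq libraries, with Benjamini-Hochberg adjustment over all genes tested and a call at an adjusted p under 0.05. DESeq2 1.42.0, another scaling, no filter, other thresholds and leaving out each library were alternatives. Fits were tested on simulated counts with planted changes. In MeRIP-seq the planted changes were far larger than the differences described here and only in genes of high count. The power to call smaller MeRIP-seq differences was therefore not tested. Figures used matplotlib 3.10.9. Of the 327 hosts, 324 were found in the count tables, 14 of them by synonym.

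The members, gene lists and tests were chosen with earlier results of these data known. Named were the 10 members of largest m per list and of largest smaller m in both, the nearest pair in the 5 hosts with most members, the 10 hosts with most members, up to 4 hosts per gene list, and up to 5 called hosts per direction and RNA-seq comparison with a mean of at least 5 CPM and no overlap. In MeRIP-seq no host was called, and Ngfr and Map1a were chosen after their values were seen. So were the other sites of named hosts and the windows shown. Some hosts that the rule names are not reported here.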

Additional observations from a re-analysis of the deposited data

How the results depend on the processing

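The number of members fell from 591 to 151 with m of at least 4 and 45 with m of at least 5, and their hosts from 327 to 114 and 39. The share listed in both libraries rose to 84.1% and 88.9%, and was 89.1% with at least 20 reads. A cytosine 2 bases after the site stood at 70.9% and 75.6%, a guanine before it at 97.8% with m of at least 5, and GGACC at 37.8% there. Counting sites within 1 or 5 bases as shared, leaving out shares of 50% and assigning hosts on either strand moved no value past its interval or 1.5 times. No label says that replicate numbers pair the samples, and the counts do not settle it. Correlations of deviations between libraries with the same number ran from −0.29 to 0.57. In the 3 RNA-seq comparisons 2, 3 and 3 of 6 libraries correlated best with their own number. With a replicate block, MeRIP-seq gave 7 hosts higher and 14 lower in either condition, against 0. Over all genes the block gave 48 higher and 1030 lower in naive, and 44 and 892 at SNLD1. The knockout in naive gave 5 lower hosts with the block, beside 18 lower genes in all. For injury, 5 hosts were higher in a fit of the 2 groups alone and 4 to 10 without a replicate. Of all genes 96 and 60 to 130 were then higher, against 126 in the main fit. For the knockout in naive, lower hosts numbered 7 without the filter (and higher 2), 4 with DESeq2, 1 with the 2 groups alone and 0 to 2 without a replicate. At SNLD1 they numbered 12 without the filter (and higher 2), 12 with DESeq2 (and higher 1), 3 with the 2 groups alone and 2 to 6 without a replicate. Genes called over the whole table, 38 in naive and 194 at SNLD1, were 191 and 570 without the filter and 73 and 399 with DESeq2. Of these, the lower ones were 15 and 68 in the main fit, 84 and 236 without the filter and 31 and 179 with DESeq2. With the 2 groups alone 15 and 49 genes were lower, and without a replicate 2 to 17 and 9 to 83. The cause of these differences was not tested. Near 0, the injury difference changed sign without a replicate for Basp1 (−0.21 to 0.073), Tubb2a (−0.045 to 0.23) and Tubb3 (−0.047 to 0.33), none of which passed. With a median of 14 reads over a member, intervals on a mutated share are wide, and 1 library per condition gives no replicate error.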
